A study of Mus musculus with 24 samples.

Results

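The genes described here are 32 markers of mature neurons and synapses: proteins of the synaptic vesicle and its release machinery, proteins of the postsynaptic side, neuronal cytoskeleton, and enzymes, transporters and peptides of inhibitory neurons. They were chosen by symbol, and all 32 were found among the 48321 gene symbols counted. RNA came from hippocampal cells of adult C57BL/6 mice, sorted for GFP. All animals carried Hes5::CreERT2, a tamoxifen-inducible Cre recombinase driven from Hes5 (a Notch target gene of neural stem cells), and the reporter Rosa26R-CAG::GFP. Wild type (WT) animals were Notch2 wt/wt, and conditional knockout (CKO) animals were Notch2 flox/flox. Both genotypes had 5 days of tamoxifen and 1 day of chase, so the GFP label marks cells in which the Hes5-driven Cre was active and their offspring. Each genotype had 3 pools of sorted cells from several animals, with 2 libraries made per pool and 2 lanes read per library. How the 2 libraries of a pool differ, and whether library numbers mean the same in each pool, is not given. The labels leave unsaid whether pools had animals in common, so a p-value here speaks only to pool-to-pool spread, which may be technical.

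Neurons signal by fusing vesicles with the membrane of the nerve ending. In that step Vamp2 on the vesicle and Snap25 on the plasma membrane form a complex, synaptotagmin (Syt1) senses calcium and complexins set the readiness of the complex. The facing membrane holds receptors on a scaffold of Dlg4 (PSD-95) and Shank proteins, with the calcium/calmodulin kinase Camk2 beside them. In the hippocampus most neurons are excitatory and load glutamate by way of Slc17a7, while interneurons make GABA with Gad1 and Gad2 and load it by way of Slc32a1. Mature neurons are not the cells that a Hes5-driven Cre is meant to label, and some of these genes, among them Vamp2 and Map2, are also transcribed outside neurons.

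Reads in genes numbered 40366579 to 53984963 per pool. Levels are given in CPM, read counts scaled to a common library size with TMM normalization, and 1 read was worth 0.0175 to 0.0265 CPM. Notch2, the deleted gene, stood at 99.3, 146 and 303 CPM in the WT pools and 65.3, 116 and 121 CPM in the CKO pools, so the genotypes overlapped (log2 fold change -0.86, SE 0.45, edgeR adjusted p = 0.790). A gene count includes exons that remain after recombination, so it checks the labels only in part. RNA of genes of the Hes5 lineage was detected: Hes5 stood at 234 to 495 CPM, Sox9 at 261 to 651 and Gfap at 780.4 to 1699 over the 6 pools, while Nes ranged from 0.185 to 6.37. All samples were sorted cells, so enrichment for that lineage was not measured. The 12 astrocyte markers summed to 27126 to 42761 CPM and the 32 neuron and synapse genes to 1140.1 to 2292 CPM. In pooled cells, fewer cells of a type and less RNA per cell cannot be told apart. WT pools 1 and 3 stood apart in the results below, and log2 fold changes without WT pool 1 are given beside those of all pools for the members described.

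No member differed between the genotypes past the adjusted threshold in edgeR, and a single pool stood out for most of them. WT pool 1 had the highest level of the 6 pools for 21 of the 31 members that passed the filter on low counts (67.7%). Across all 21477 genes tested, WT pool 1 was the highest pool for 25.0%. Summed over the 32 genes, levels were 2292, 1140.1 and 1388 CPM in WT pools 1, 2 and 3 and 1284, 1145 and 1217 CPM in CKO pools 1, 2 and 3. WT pool 1 was thus 1.65-fold above the highest of the other pools. At the median over the members, the level in WT pool 1 was 2.71-fold that of the middle of the other 5 pools, where the same measure over all genes tested was 0.969-fold. WT pool 3 was the lowest pool for 14 of the 31 members, where it was the lowest for 29.6% of all genes.

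**Figure D1:**
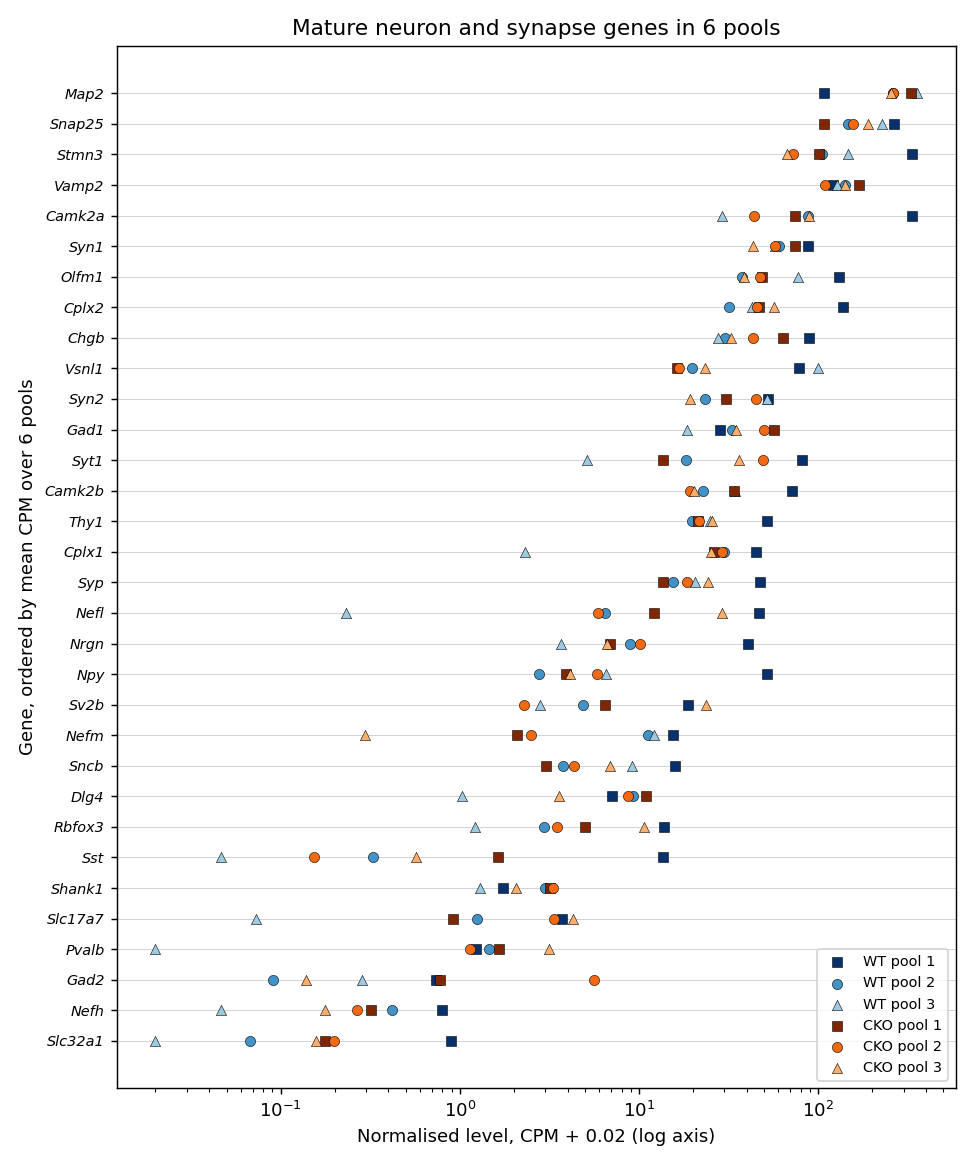
Level of each of the 32 neuron and synapse genes (CPM + 0.02, log axis) in 3 WT pools (blue) and 3 CKO pools (brown to orange), 1 point per pool, with genes ordered by mean level. The dark blue squares of WT pool 1 lie to the right for 21 of the 31 genes tested, and Map2 is the one tested gene for which that pool is the lowest.

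Of the vesicle release machinery, Snap25 stood at 264, 147 and 228 CPM in WT and 108, 157 and 189 CPM in CKO pools, and Vamp2 at 121, 141 and 128 CPM in WT and 169, 109.5 and 140.3 CPM in CKO pools. Both were abundant in every pool, and Vamp2 varied least among them. Syt1, the calcium sensor, was at 81.5, 18.2 and 5.11 CPM in WT and 13.6, 49.4 and 36.3 CPM in CKO pools, so WT held both its highest and its lowest value. Of the complexins, Cplx2 stood at 137, 31.7 and 42.7 CPM in WT and 46.8, 45.3 and 56.8 CPM in CKO pools, with WT pool 1 far above the rest. Cplx1 stood at 45.2, 29.8 and 2.28 CPM in WT and 26.2, 29.02 and 25.3 CPM in CKO pools, with WT pool 3 far below the rest. The groups overlapped for each of these 5 genes. Log2 fold changes (CKO over WT) were -0.49 for Snap25 (SE 0.31), 0.10 for Vamp2 (SE 0.23), -0.08 for Syt1 (SE 0.94), -0.50 for Cplx2 (SE 0.55) and 0.06 for Cplx1 (SE 0.86), with edgeR adjusted p of 0.798 to 0.986. Without WT pool 1 they were -0.30, 0.07, 1.51, 0.43 and 0.76 in the same order, so Syt1 and Cplx2 changed sign.

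Among genes for proteins of the vesicle itself, Syn1, a synapsin that tethers vesicles to the cytoskeleton, stood at 87.8, 60.4 and 57.6 CPM in WT and 74.3, 57.7 and 43.3 CPM in CKO pools. Syn2 stood at 52.2, 23.4 and 51.6 CPM against 30.5, 45.2 and 19.3 CPM, and Syp, the vesicle membrane protein synaptophysin, at 47.4, 15.5 and 20.6 CPM against 13.6, 18.5 and 24.3 CPM. Each was highest in WT pool 1, and each overlapped between genotypes. Sncb (beta-synuclein) stood at 15.9, 3.75 and 9.09 CPM in WT and 3.02, 4.31 and 6.88 CPM in CKO pools. Sv2b, a vesicle glycoprotein, was highest in CKO pool 3 (23.5 CPM), next to WT pool 1 (18.7 CPM), and at 2.27 to 6.47 CPM elsewhere. Slc17a7, which defines excitatory neurons of the hippocampus, was scarce: 3.70, 1.23 and 0.0530 CPM in WT (the last from 2 reads) and 0.895, 3.34 and 4.25 CPM in CKO pools. The log2 fold changes were -0.23 for Syn1 (SE 0.31), -0.42 for Syn2 (SE 0.45), -0.57 for Syp (SE 0.51), -1.02 for Sncb (SE 0.68), 0.29 for Sv2b (SE 1.02) and 0.77 for Slc17a7 (SE 1.30). Without WT pool 1 they were 0.0012, -0.24, 0.068, -0.43, 1.51 and 2.15 in the same order. Per kilobase of exon, Slc17a7 averaged 0.416 CPM over the 6 pools, against 35.3 for Vamp2 and 26.8 for Snap25. On that per-length scale the highest members after Stmn3 (121 CPM per kb) were Vamp2, Snap25, Npy (22.03) and Vsnl1 (21.6), and the lowest were Nefh (0.0793), Slc32a1 (0.0830), Gad2 (0.212) and Shank1 (0.230).

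On the postsynaptic side the 5 members summed to 455 CPM in WT pool 1 and to 68.9 to 131 CPM in the other 5 pools. Camk2a, a kinase subunit of excitatory neurons, stood at 334, 87.4 and 28.9 CPM in WT and 74.5, 44.0 and 89.0 CPM in CKO pools. Nrgn, which binds calmodulin in dendrites, stood at 40.6, 8.90 and 3.63 CPM in WT and 6.89, 10.2 and 6.61 CPM in CKO pools. For both, WT pool 1 was the highest and WT pool 3 the lowest, so that all 3 CKO pools lay between WT pools. Camk2b followed with 71.6, 22.7 and 34.1 CPM against 33.8, 19.2 and 20.3 CPM. The scaffold genes did not share that order: Dlg4 stood at 7.04, 9.27 and 1.01 CPM in WT and 10.98, 8.64 and 3.56 CPM in CKO pools, and Shank1 at 1.72, 2.97 and 1.27 CPM against 3.18, 3.30 and 2.05 CPM. Log2 fold changes were -1.12 for Camk2a (SE 0.80), -1.17 for Nrgn (SE 0.86), -0.81 for Camk2b (SE 0.49), 0.42 for Dlg4 (SE 0.86) and 0.51 for Shank1 (SE 0.69), none past the threshold (edgeR adjusted p of 0.798 to 0.917). Without WT pool 1, Camk2a was at 0.27, Nrgn at 0.34, Camk2b at -0.20, Dlg4 at 0.61 and Shank1 at 0.43.

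Of the 31 members, 3 had pools that did not overlap between genotypes, 1 with CKO higher and 2 with CKO lower; over all genes tested these shares were 7.67% and 8.17%, so the members' count is no higher than the background. The 2 lower ones, Stmn3 and Nefm, are cytoskeletal genes. Stmn3 (GRCm38 chromosome 2, 181306459 to 181314500, minus strand), a stathmin that binds tubulin and had the highest level per kilobase of the 32 genes, stood at 332, 105 and 146 CPM in WT and 101, 72.3 and 66.9 CPM in CKO pools. Every CKO pool was below every WT pool, although CKO pool 1 came close to WT pool 2. The log2 fold change was -1.28 (SE 0.45, edgeR adjusted p = 0.790, unadjusted p = 0.0240, exact two-sided permutation p = 0.1, the smallest that 3 against 3 pools allow), and -0.63 without WT pool 1. It was -1.47 in library 1 and -1.07 in library 2.

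Nefm, the medium neurofilament subunit, stood at 15.5, 11.1 and 12.1 CPM in WT and 2.07, 2.49 and 0.275 CPM in CKO pools. The WT pools lay close together, and the lowest of them was 4-fold or more above the highest CKO pool. Its log2 fold change was -3.00 (SE 0.84, edgeR adjusted p = 0.790, before adjustment p = 0.00903, and p = 0.1 by exact permutation), and -2.84 without WT pool 1. Nefm was the member that DESeq2 called (adjusted p = 0.0261, where DESeq2 called 0.608% of the genes it tested). The reads were uneven between libraries. Library 1 held 634, 396 and 449 reads in WT pools 1, 2 and 3 and library 2 held 148, 76 and 7, against 106, 26 and 4 (library 1) and 12, 85 and 10 (library 2) in CKO pools 1, 2 and 3. Within library 1 the log2 fold change was -3.78 and within library 2 it was -1.15. In GENCODE M21 Nefm (chromosome 14, 68082590 to 68124846, minus strand) overlaps Nefl (68083863 to 68089095, plus strand). Smart-Seq2 with Nextera XT is a protocol that does not mark strand, and the strand setting of the counting is not given. The overlap is of whole gene spans, and shared exon stretches were not examined. Whether reads from such a stretch were counted to either gene or left out as ambiguous is not known.

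Nefl, the light subunit with which Nefm assembles, had another pattern. It stood at 46.8, 6.42 and 0.212 CPM in WT and 12.2, 5.88 and 29.1 CPM in CKO pools, so that WT pools held both extremes. Its log2 fold change was -0.18 (SE 1.43, edgeR adjusted p = 0.980), against 2.27 when WT pool 1 was left out. Nefh, the heavy subunit, was scarce in all pools at 0.771, 0.401 and 0.0265 CPM in WT (the last from 1 read) and 0.298, 0.247 and 0.157 CPM in CKO pools. Its log2 fold change was -0.77 (SE 1.13), and 0.14 without WT pool 1. Map2, a microtubule protein of dendrites, ran opposite to most of the genes: 108, 262 and 358 CPM in WT and 328, 262 and 256 CPM in CKO pools, lowest in WT pool 1 (log2 fold change 0.22, SE 0.41, edgeR adjusted p = 0.907, and -0.12 without WT pool 1).

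Among genes for surface, calcium-binding and secreted proteins, Vsnl1 (chromosome 12, 11325242 to 11436613, minus strand), the neuronal calcium sensor visinin-like 1, stood at 78.0, 19.7 and 99.4 CPM in WT and 16.2, 16.8 and 23.2 CPM in CKO pools. WT pools 1 and 3 were high, and WT pool 2 lay within the CKO range. The log2 fold change was -1.81 (SE 0.58, edgeR adjusted p = 0.790, before adjustment p = 0.0161, and p = 0.2 by exact permutation), and -1.66 without WT pool 1. It was -2.16 in library 1 and -1.64 in library 2. Olfm1, a secreted olfactomedin, stood at 131, 37.5 and 77.4 CPM in WT and 48.8, 47.4 and 38.5 CPM in CKO pools. Thy1, a surface glycoprotein of projection neurons, stood at 51.6, 19.7 and 24.8 CPM against 21.3, 21.7 and 25.5 CPM; the pools other than WT pool 1 lay close together. Chgb, the granin of dense-core granules, stood at 89.4, 30.1 and 27.4 CPM against 63.4, 43.1 and 32.7 CPM. Rbfox3, the nuclear protein known as NeuN, stood at 13.7, 2.93 and 1.19 CPM against 4.98, 3.48 and 10.6 CPM. Each of these 4 was highest in WT pool 1 and overlapped between genotypes, with log2 fold changes of -0.87 for Olfm1 (SE 0.44), -0.49 for Thy1 (SE 0.43), -0.08 for Chgb (SE 0.53) and 0.10 for Rbfox3 (SE 0.96). Without WT pool 1 they were -0.34, 0.049, 0.71 and 1.65 in the same order.

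Among inhibitory neuron genes, Gad1 (chromosome 2, 70553072 to 70602014, plus strand), the larger of the glutamate decarboxylases that make GABA, was the one member whose 3 CKO values all exceeded the 3 WT values: 28.3, 33.0 and 18.6 CPM in WT and 56.7, 50.1 and 34.9 CPM in CKO pools. The log2 fold change was 0.83 (SE 0.35, edgeR adjusted p = 0.790, before adjustment p = 0.0478, and p = 0.1 by exact permutation) and 0.89 without WT pool 1. Its libraries disagreed in the WT pools, with 12.8 and 38.2 CPM in libraries 1 and 2 of pool 1, 7.45 and 62.8 in pool 2 and 42.6 and 2.68 in pool 3. Within library 1 the log2 fold change was 1.30, and within library 2 it was 0.30. The span of the antisense gene Gad1os overlaps that of Gad1. How reads from any shared stretch were counted, or whether they were left out as ambiguous, is not known.

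The partner enzyme Gad2 and the vesicular GABA transporter Slc32a1 were scarce in most pools. Gad2 had 3, 10 and 6 reads in WT pool 2, WT pool 3 and CKO pool 3. Gad2 stood at 0.712, 0.0708 and 0.265 CPM in WT and 0.754, 5.56 and 0.118 CPM in CKO pools, and 230 of the 248 reads of CKO pool 2 came from library 2 (log2 fold change 2.60, SE 1.52, and 3.65 without WT pool 1). Slc32a1 was the one member that did not pass the filter, with 44, 2 and 0 reads in WT and 9, 8 and 7 reads in CKO pools. The 0 reads of WT pool 3 allow a level of up to 0.0795 CPM, the value of 3 reads. Gad1 stood far above its partners: per kilobase of exon, Gad1 averaged 4.84 CPM over the 6 pools, Gad2 0.212 and Slc32a1 0.0830.

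The interneuron peptides were the members most concentrated in WT pool 1. Npy (chromosome 6, 49822710 to 49829507) stood at 51.7, 2.76 and 6.52 CPM in WT and 3.89, 5.83 and 4.09 CPM in CKO pools, so WT pool 1 was 12.6-fold above the middle of the other pools. Sst (somatostatin, chromosome 16, 23889573 to 23890958, minus strand) stood at 13.6, 0.307 and 0.0265 CPM in WT (the last from 1 read) and 1.61, 0.135 and 0.551 CPM in CKO pools, a ratio of 44.2-fold. Pvalb, which marks another class of interneuron, did not share this order, at 1.21, 1.44 and 0 CPM in WT and 1.63, 1.12 and 3.11 CPM in CKO pools. The log2 fold change of Pvalb was 1.14 (SE 1.46, and 1.46 without WT pool 1). That of Npy was -2.14 (SE 1.05, edgeR adjusted p = 0.790), against -0.0024 when WT pool 1 was left out. That of Sst was -2.59 (SE 1.94, edgeR adjusted p = 0.806), against 2.21.

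RefSeq promoter windows (GRCm38.p6) were found for 24 of the 32 genes, some with several start sites, 34 windows in all. They are shown for 3 genes that were each highest in WT pool 1 and whose windows share an exact match to the cAMP response element, TGACGTCA. The 250 bases before each start were searched on both strands. This motif was in 3 of the 34 windows and in 1.55% of 32851 windows of all genes. The motif's share was not adjusted for base composition, which differed: the median GC content was 58.2% in the members' windows and 52.4% in all windows. The first 3 lines give 30 bases around the match, 5′ to 3′ on the strand of the gene, with the match in capitals. It lies 48 to 41 bases before the RefSeq start of Sst (chr16:23890874-23890903, minus strand), 72 to 65 before that of Chgb (chr2:132781559-132781588, plus strand) and 159 to 152 before that of Syn1 (chrX:20921059-20921088, minus strand).
Sst: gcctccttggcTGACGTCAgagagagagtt
Chgb: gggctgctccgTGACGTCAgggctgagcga
Syn1: caaaggctgacTGACGTCActcactagccc
A longer stretch of the Syn1 promoter (chrX:20921005-20921168, minus strand) also holds TTCAGCACC, the left part of the RE1 element bound by the repressor REST, which silences neuronal genes outside neurons. Both motifs are in capitals. The left part was in 0.301% of all windows and, among the 34, in that of Syn1 alone.
Syn1 promoter: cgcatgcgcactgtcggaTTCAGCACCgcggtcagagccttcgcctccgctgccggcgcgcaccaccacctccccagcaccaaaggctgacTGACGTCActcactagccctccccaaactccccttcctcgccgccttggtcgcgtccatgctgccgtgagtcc
The right part of RE1, searched as GGACAGCG, was in 1 of the 34 windows, that of Gad2, and in 0.992% of all windows. The other motifs searched were the GC box (GGGCGG), the TATA box (TATAAA) and the E-box (CAGCTG). They were in 47.1%, 8.82% and 8.82% of the 34 windows and in 32.7%, 12.4% and 13% of all windows. A match describes these letters and was not tested as a site. The 3 genes were picked for having both the motif and their highest level in WT pool 1, which 21 of 31 members had, so the sharing is no finding.

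Taking the genotype comparison over all members, 0 of 31 passed edgeR's quasi-likelihood test with Benjamini-Hochberg adjustment, and neither did any other gene tested (0.0% of 21477, smallest adjusted p = 0.790). Before adjustment, p was under 0.05 for 1 member higher in CKO (Gad1) and 3 lower (Nefm, Vsnl1 and Stmn3), where 3.01% of all genes were higher and 2.9% lower. Pools did not overlap for 1 member higher in CKO and 2 lower, where 7.67% of all genes did not overlap with CKO higher and 8.17% with CKO lower. Of the 31, 11 were above 0 and 20 below, with a median log2 fold change of -0.42, against -0.06 over all genes. Without WT pool 1, 21 of 31 were above 0 and the median was 0.27, against -0.01 over all genes. Without WT pool 3 the median was -0.63, with Nefm at -3.05, Stmn3 at -1.46, Vsnl1 at -1.39 and Gad1 at 0.62. The median was 0.00 with library 1 of each pool alone and -0.44 with library 2 alone. The log2 fold change was larger without WT pool 1 for 28 of the 31 members, and 10 moved by more than 1 unit. Leaving out a WT pool that is high for most members raises CKO over WT by arithmetic, so this shift is no separate finding. In the edgeR fit without WT pool 1, 1 member, Nefm, had an unadjusted p under 0.05 (p = 0.0309, edgeR adjusted p = 0.848). Nefm was lower in CKO, where 2.26% of all genes were lower and 2.8% higher at that p.

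**Figure D2:**
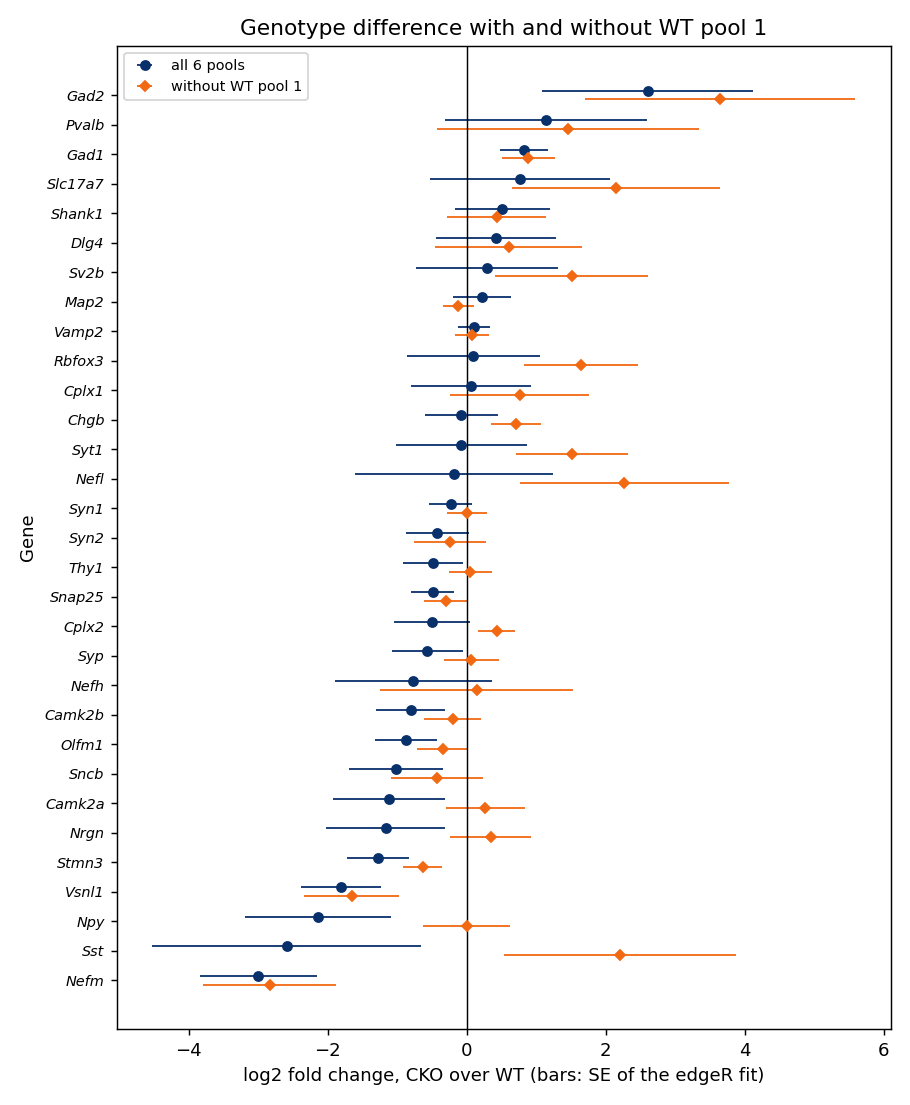
Log2 fold change (CKO over WT) of the 31 tested neuron and synapse genes, with SE bars from the edgeR fit, for all 6 pools (blue circles) and without WT pool 1 (orange diamonds). Orange lies to the right of blue for 28 of the 31 genes, as leaving out a WT pool that is high for most of them raises this ratio. Nefm, Vsnl1 and Stmn3 stay left of 0 in both fits and Gad1 right of 0, and none passed the adjusted threshold.

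Other neuronal genes, from 8 lists that hold 128 genes and none of the 32, were read beside them; whether the 2 sets differed was not tested. Of 119 that passed the filter, WT pool 1 was the highest pool for 44 (37.0%), and at their median it stood at 1.36-fold the middle of the other pools. By list these were 6 of 24 further presynaptic genes, 8 of 22 postsynaptic genes, 7 of 19 genes of the neuronal cytoskeleton, 2 of 12 neuronal RNA-binding proteins and transcription factors, 5 of 9 dentate granule neuron genes, 3 of 9 pyramidal neuron genes, 7 of 13 interneuron genes and 6 of 12 genes of the secretory granule and its peptides.

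**Figure D3:**
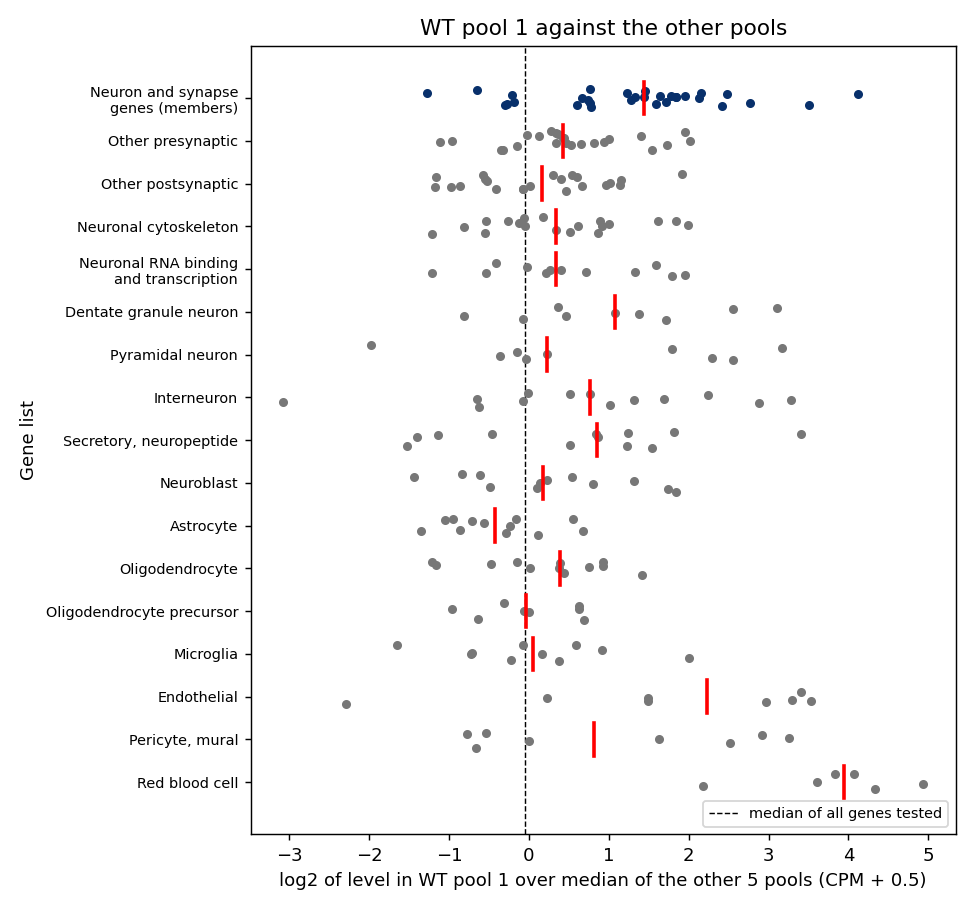
Log2 of the level in WT pool 1 over the median of the other 5 pools (CPM + 0.5), 1 point per gene that passed the filter, by gene list. Red bars are list medians and the dashed line is the median of all genes tested (-0.04). The median is 1.44 for the 32-gene list (31 tested), 2.23 for endothelial and 3.95 for red blood cell genes.

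In the edgeR genotype test 0 of these 119 genes passed over all genes, and their median log2 fold change was -0.18. DESeq2 called 1 of them, on the cytoskeleton list, where it called 0.608% of the genes it tested. Before adjustment, edgeR p was under 0.05 for 0 higher and 7 lower in CKO, where the shares over all genes were 3.01% and 2.9%. Without WT pool 1 there were 7 higher and 3 lower, where the shares were 2.8% and 2.26%, with a median of 0.12. Pools did not overlap for 2 of the 119 with CKO higher and 8 with CKO lower, against 7.67% and 8.17% of all genes. Map1a, a microtubule protein of axons and dendrites, stood at 43.1, 38.1 and 41.3 CPM in WT and 21.1, 21.2 and 17.7 CPM in CKO pools. These are tight values in both genotypes with no overlap (log2 fold change -1.03, SE 0.28, edgeR adjusted p = 0.790, unadjusted p = 0.00786, -0.98 without WT pool 1, -1.12 in library 1 and -0.98 in library 2). Kif1a, the kinesin that carries vesicle precursors along axons, stood at 353, 343 and 431 CPM in WT and 261, 208 and 278 CPM in CKO pools, also without overlap (-0.59, SE 0.21, edgeR adjusted p = 0.790, -0.62 without WT pool 1). Celf4, a neuronal RNA-binding protein, stood at 48.4, 29.7 and 81.9 CPM against 17.8, 14.9 and 29.3 CPM. Dnm1, the dynamin of vesicle recycling, stood at 36.8, 25.5 and 22.3 CPM against 18.1, 12.4 and 13.1 CPM. For all 4 the highest CKO pool was below the lowest WT pool, for Celf4 only by 29.3 against 29.7 CPM. None passed the adjusted threshold in edgeR. Scg5, a chaperone of the secretory pathway (-0.78, SE 0.32, and -0.39 without WT pool 1), and Dlgap2, a postsynaptic scaffold protein (-2.73, SE 1.10), were also without overlap; for Dlgap2 the libraries were opposed, with 1.31 for library 1 and -4.12 for library 2.

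In the other direction, Dock10, on the granule neuron list, stood at 23.9, 15.1 and 15.1 CPM in WT and 25.1, 53.7 and 25.1 CPM in CKO pools, without overlap (log2 fold change 0.94, SE 0.44, edgeR adjusted p = 0.790). Rab3a, the GTPase of synaptic vesicles, was highest in WT pool 1, as were 21 of the 31 members tested. It stood at 279, 85.0 and 96.9 CPM in WT and 70.5, 65.5 and 84.1 CPM in CKO pools. Its log2 fold change was -1.07, against -0.30 when WT pool 1 was left out, and its groups were separated only by 85.0 against 84.1 CPM.

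Markers of some other cell types were also high in WT pool 1. Of 8 endothelial markers, 6 were highest there, and their summed level was 118 CPM in WT pool 1, 18.7 to 30.8 in the other WT pools and 14.4 to 39.6 in CKO pools, with Esam and Ly6c1 at 0 reads in WT pool 3. Of 6 red blood cell genes, 5 were highest there, with sums of 761 CPM in WT pool 1, 101 to 131 in the other WT pools and 25.1 to 123 in CKO pools. Pericyte and mural markers were less set apart, with 4 of 8 highest there (109 CPM in sum, 38.6 to 93.7 in the other WT and 56.3 to 102 in CKO pools, with Abcc9 at 0 reads in WT pool 1 and Kcnj8 in WT pool 3). Neuroblast genes, the immature stage before these neurons, were not set apart as far: 4 of 12 were highest in WT pool 1, at 1065 CPM in sum against 726 to 928 in the other WT and 708 to 893 in CKO pools. The remaining lists were not highest there as a rule: 0 of 10 microglia, 2 of 12 astrocyte, 3 of 12 oligodendrocyte and 2 of 8 oligodendrocyte precursor markers had their highest level in WT pool 1, and 6 of the 12 astrocyte markers had their lowest. The part of these cell types in the neuron values was not tested.

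The 2 libraries of a pool are repeat measurements of the same pool, and they differed for these genes as they did over all genes. The fold between libraries had a median over 30 members of 1.73, 1.46 and 2.47 in WT pools 1, 2 and 3 and of 1.44, 1.501 and 1.58 in CKO pools 1, 2 and 3 (CPM + 0.5). In WT pool 3, 12 of 30 members differed by more than 4-fold, against 1 to 3 in each other pool. Over 17230 genes, 4.76% to 14.5% did so in each other pool and 30.9% in WT pool 3. There Syp stood at 49.5 CPM in library 1 and 1.29 in library 2, Syn2 at 4.14 and 93.5, Camk2b at 77.4 and 5.56, and Npy at 16.2 and 0. WT pool 1 was the highest of the pools for 13 of 31 members in library 1 and for 17 in library 2, where it was so for 24.6% and 20.2% of all genes. It was the highest in both for 10 members, against 10.3% of all genes. Of the 21 members highest in WT pool 1 with libraries summed, 11 were thus not highest there in both libraries. Among the 10, Camk2a stood at 281 and 348 CPM, Nrgn at 40.4 and 37.5, Cplx2 at 163 and 105, Thy1 at 52.3 and 46.8 and Sst at 18.9 and 8.28 in libraries 1 and 2 of WT pool 1. Among the others the library with the higher level in WT pool 1 varied. Library 2 was the higher for Snap25 (99.0 and 371 CPM), Syn1 (22.2 and 132), Syp (17.6 and 66.8) and Cplx1 (21.6 and 60.0). It was also the higher for Syt1 (56.1 and 94.7) and Sncb (10.6 and 18.8). Library 1 was the higher for Olfm1 (164 and 94.5), Rbfox3 (17.9 and 9.36), Nefm (27.2 and 4.98), Syn2 (59.7 and 42.1) and Nefh (1.46 and 0.168). For Snap25, library 1 of WT pool 1 was the lowest library 1 of the 6 pools.

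**Figure D4:**
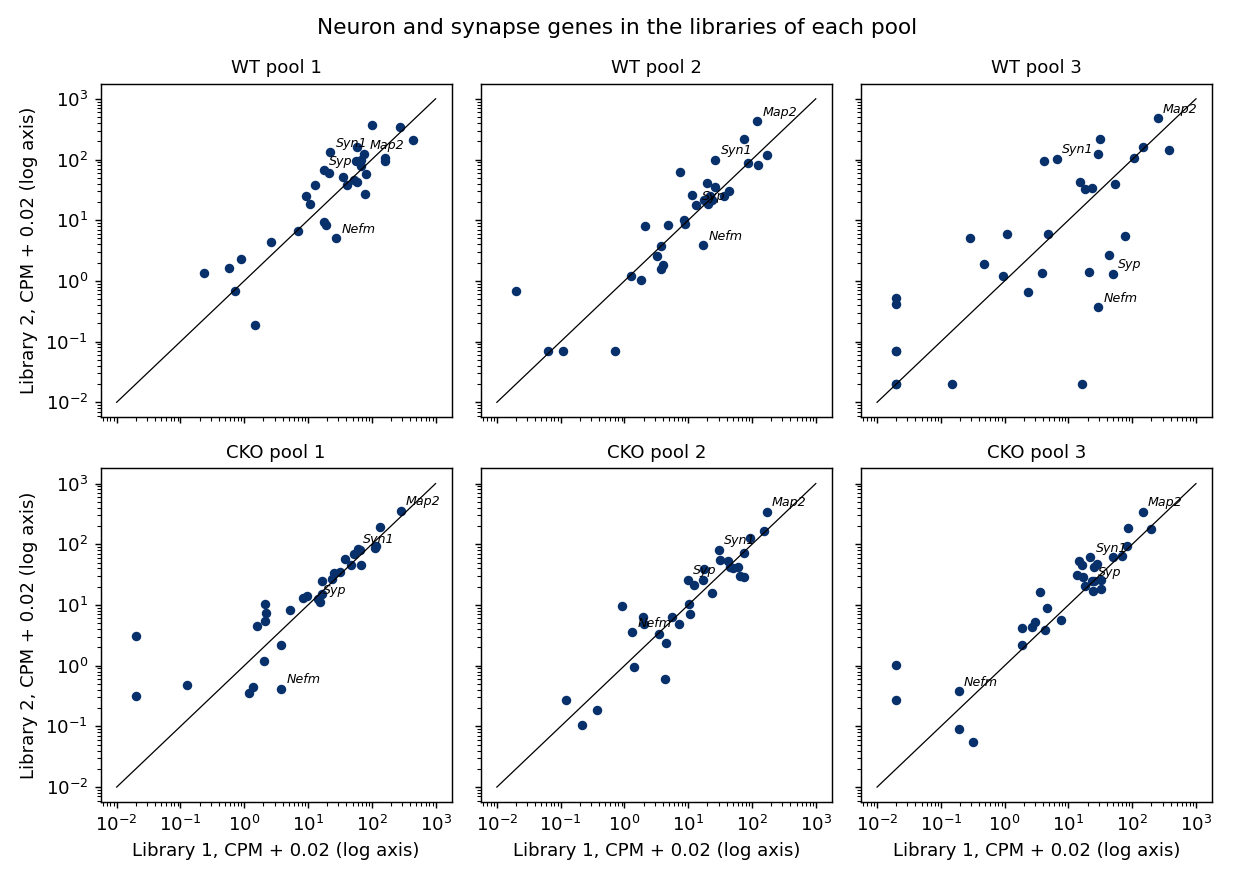
Level of the 32 neuron and synapse genes in library 1 (x) and library 2 (y) of each pool (CPM + 0.02, log axes), 1 point per gene, with the line of equality. Points lie close to the line in CKO pool 1 (median 1.44-fold) and scatter most in WT pool 3 (2.47-fold). Syn1 and Map2 lie above the line in all 6 pools.

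A comparison of library 2 with library 1 within pools asked whether some of these genes depended on the library number. The labels do not say whether libraries of equal number in different pools share a preparation. No member passed this comparison (0 of 30, and 0.0% of 18267 genes in edgeR, smallest adjusted p = 0.173). At an unadjusted p under 0.05, 3 members were higher in library 2 and 0 lower, where 7.6% of all genes were higher and 6.78% lower. These were Syn1 (log2 fold change 1.94, SE 0.45), Map2 (1.01, SE 0.21) and Vamp2 (1.27, SE 0.32), each higher in library 2 in 6 of 6 pools, with edgeR adjusted p of 0.175, 0.173 and 0.186. DESeq2 called these 3, among 11.5% of all genes. For Syn1 the pairs were 22.2 and 132, 26.7 and 99.6 and 6.58 and 103 CPM in the WT pools and 60.7 and 84.2, 30.3 and 81.9 and 21.98 and 60.6 CPM in the CKO pools. Camk2a was also higher in library 2 in all 6 pools, by a log2 fold change of 0.52 (SE 0.23). The difference between the genotypes in this library effect passed for 0 of 30 members and 0.0% of all genes (smallest edgeR adjusted p = 0.958). Before adjustment p was under 0.05 for 2 members, Syn1 and Vamp2, both with smaller library differences in CKO pools, where 3.03% of all genes had such a p in that direction and 1.83% in the other.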

How the data were processed

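Per the labels' protocols, Smart-Seq2 cDNA of sorted cells went into Nextera XT libraries. The deposited tables hold raw read counts per gene symbol, 1 for each of 24 runs. Bowtie2, HTSeq and GRCm38 are named in the submitters' processing notes; their versions, annotation and settings are not given in the sources used here. The HTSeq lines that name no gene were left out: reads outside genes were 16.0% to 35.3% per pool, unaligned reads 11.2% to 21.7% and ambiguous reads 2.51% to 3.43%. WT pool 1 had the lowest share outside genes and CKO pool 2 the highest. WT pool 3 had the highest unaligned share and CKO pool 2 the lowest. No reads were listed as having several alignments, so reads of close paralogs may lie on either copy. Of the 32 genes, 16 have a span that overlaps that of another annotated gene.

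The lanes of each library agree within sampling noise (0.986 to 1.01 chi-square per degree of freedom) and were summed. Between library 1 and library 2 the same measure ran from 70.7 to 351.1, well beyond sampling noise, and it was largest in WT pool 1. Their reads were added per pool despite this, so the sum does not rest on agreement between them. Genotypes (n = 3 pools each) were tested in edgeR 4.0.16 (R 4.3.3) on all genes kept by filterByExpr (21477), with TMM scaling, the robust quasi-likelihood test and Benjamini-Hochberg adjustment at 0.05. Libraries were compared in the same way with pool as a block (18267 genes). The fits were also run on simulated counts. The share of changes recovered there is not given here, so a gene not called cannot be read as unchanged. Exact permutation tests were two-sided on log2(CPM + 0.5). Alternatives were DESeq2 1.42.0, limma 3.58.1 and those given with the closing results. Exon lengths and positions are from GENCODE M21. Deviations of same-numbered pools were only weakly correlated, which cannot decide whether numbers pair them. The main fit did not pair them.

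The members and gene lists were chosen with earlier results of these data known. All 32 members are reported. Of each other neuronal list at most the 3 genes with the smallest p could be named. Depth limits counting error only, and reads carry no molecular identifiers.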

Additional observations from a re-analysis of the deposited data

How the results depend on the processing

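No member was called in the genotype comparison by edgeR under any alternative run. DESeq2 called 129 genes and 1 member (Nefm), and limma with voom called 0. The members' median log2 fold change ranged from -0.65 to 0.27 when each pool was left out in turn, with 0.27 without WT pool 1, and was -0.02 with limma-voom, 0.00 in library 1 and -0.44 in library 2. In the library comparison 6 genes were called without the low-count filter, and DESeq2 called 2093 genes and 3 members. Of 31 members, 18 had the opposite sign in at least 1 alternative. With limma-voom these were Syt1 (0.086), Nefl (0.94), Cplx2 (0.0018) and Chgb (0.25). In library 1 alone they were Syt1 (0.56), Syn1 (1.04), Syn2 (0.35), Nefl (0.28), Rbfox3 (-1.45) and Chgb (0.000945), and in library 2 alone Cplx1 (-0.32) and Vamp2 (-0.25). With the replicate number as a block, 0 genes and 0 members were called, the median was -0.18, and Syt1 (0.79), Nefl (0.64), Sv2b (-0.082) and Chgb (0.092) had the opposite sign. Same-numbered WT and CKO pools had correlations of their deviations of 0.0559, 0.0218 and -0.0280 and did not all correlate best with their own number. Leaving out each pool in turn gave log2 fold changes of -0.61 to 1.51 for Syt1, -0.43 to 0.0012 for Syn1, -0.79 to 0.068 for Syp, -1.61 to 0.27 for Camk2a, -1.66 to 0.34 for Nrgn, -0.68 to 0.049 for Thy1, -0.90 to 2.27 for Nefl, -1.32 to 0.14 for Nefh and -0.42 to 1.65 for Rbfox3. The ranges were -0.12 to 0.61 for Map2, -0.93 to 1.51 for Sv2b, -0.49 to 0.76 for Cplx1, -0.78 to 0.43 for Cplx2, -0.046 to 0.25 for Vamp2, -0.37 to 0.71 for Chgb, -0.083 to 1.02 for Dlg4 and -3.74 to 2.21 for Sst. The cause of these changes was not tested. The biological coefficient of variation in common was 0.725. Few reads stood behind Slc32a1 (0 to 44 per pool) and Nefh (1 to 39), and 3 reads were worth 0.0526 to 0.0795 CPM.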
